A study of Mus musculus with 20 samples.

Results

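Penk, Pdyn, Tac1 and Cartpt are the 4 neuropeptide genes taken here as those of medium spiny neurons, the projection neurons that make up most of the striatum. They were found by symbol among the 39179 Ensembl genes of the count tables, and all 4 were expressed in every mouse. The question was whether their RNA differed between a mouse line bred for high home cage activity and its unselected control line, and whether a low dose of amphetamine changed it. RNA from the whole bilateral striatum of 20 male mice of generation 17, about 6.5 months old, was sequenced, with 5 mice in each of 4 groups. Control saline and Control amphetamine mice came from the unselected line, and High-Active saline and High-Active amphetamine mice from the line bred for activity. Both lines descend from one intercross of inbred strains. The amphetamine groups received amphetamine by injection at 0.25 mg/kg and the saline groups the vehicle alone, and the tissue was taken 2 hours later. Each line is a single breeding population, so selection and drift cannot be told apart. Parents were shared more in one line than in the other, with 8 families among the 10 Control mice and 5 among the 10 High-Active mice. A full sib in the data was present for 4 Control and 9 High-Active mice.

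Neuropeptides are cut from larger precursor proteins inside secretory granules and released along with GABA from medium spiny neurons. Neurons of the indirect pathway carry dopamine D2 receptors and make proenkephalin (Penk), the source of enkephalins, which act mainly at mu and delta opioid receptors. Neurons of the direct pathway carry dopamine D1 receptors and make preprotachykinin (Tac1), the source of substance P and neurokinin A, and prodynorphin (Pdyn), the source of dynorphins, which act at kappa opioid receptors. Cartpt encodes the CART prepropeptide, named for its regulation by cocaine and amphetamine and known in the striatum mainly from the nucleus accumbens.

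The coding sequences show what the precursors carry, and one or more examples of each kind are given. The enkephalin cores and tachykinin ends were found in frame in the GENCODE M21 transcripts, whose positions are on GRCm38. Penk (chromosome 4, 4133531 to 4138819, minus strand) held 6 copies of the Met-enkephalin core and 1 of the Leu-enkephalin core, all in its last coding exon. Pdyn (chromosome 2, 129686565 to 129699844, minus strand) held 3 Leu-enkephalin cores, 1 at the start of each of its opioid peptides. Tac1 (chromosome 6, 7554879 to 7565834, plus strand) held 2 tachykinin ends. The Cartpt gene (chromosome 13, 99898489 to 99901091, minus strand) held none of these. Capitals mark the 15 bases of the core or end, and 9 bases on either side are in lower case. In every Penk and Pdyn copy the core directly followed a pair of basic residues, the usual cleavage signal.
Penk, first Met-enkephalin core, chr4:4134325-4134357: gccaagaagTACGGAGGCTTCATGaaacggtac
Penk, Leu-enkephalin core, chr4:4133932-4133964: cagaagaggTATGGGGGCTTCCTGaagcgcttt
Pdyn, first Leu-enkephalin core, chr2:129688229-129688261: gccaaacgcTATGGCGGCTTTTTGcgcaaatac
Tac1, first tachykinin end, chr6:7556741-7556773: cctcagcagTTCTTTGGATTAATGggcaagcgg
Tac1, second tachykinin end, chr6:7559107-7559139: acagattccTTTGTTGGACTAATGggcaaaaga

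Promoters of 300 bases (250 before the start of transcription) were available from RefSeq on GRCm38.p6 for 3 of the 4 genes. The Cartpt promoter held the full cyclic AMP response element TGACGTCA, which 1.79% of all 32851 promoters held on either strand. This RefSeq promoter, at 99900634 to 99900933, lay inside the Cartpt gene as placed above. The position of the element relative to the start of transcription therefore depends on the annotation. The stretch around the element is shown because Cartpt was the member closest to the threshold, with the element in capitals.
Cartpt, chr13:99900768-99900815, minus strand: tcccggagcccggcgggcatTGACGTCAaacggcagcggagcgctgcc

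The Tac1 promoter held 2 copies of the short form TGACG, found in 20.8% of promoters on either strand and counted within the full element too. The Pdyn promoters held neither form, and no promoter of the 3 genes held the AP-1 site TGANTCA, found in 7.81% of promoters on either strand. A match is a description of the sequence and not evidence that a factor binds there.

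Reads on genes numbered from 32388971 to 53710713 in a mouse (median 41703853.5). Levels are CPM, reads scaled to a common library size after TMM normalization, and 14792 genes exceeded 1 CPM in 3 or more mice and were tested. All 12 medium spiny neuron markers were expressed, among them Ppp1r1b (DARPP-32), at a summed level of 6114 to 10051 CPM over the 20 mice. The summed level of 10 cortical excitatory markers ran from 325 to 892 CPM in Control saline, 648 to 927 in Control amphetamine, 153 to 348 in High-Active saline and 235 to 1045 in High-Active amphetamine mice, and 4 of these markers were lower in the High-Active line. That of the 6 choroid plexus markers ran from 20.8 to 904 CPM, and that of the 8 oligodendrocyte markers from 4064 to 7434 CPM, with 2 of these higher in the High-Active line. Whether a lower level means fewer cells of a type in the dissected piece or less RNA per cell cannot be told from bulk tissue. The striatum was dissected away from the cortex, and how much cortex each piece kept was not tested.

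Per kilobase of exon, the scale on which genes can be compared, Penk stood at 754 CPM per kb ± 119 (SD, n = 20 mice), rank 16 of 14650 genes with a known length. Tac1 followed at 68.3 ± 10.7 (rank 512), Pdyn at 42.6 ± 8.47 (rank 960) and Cartpt at 10.4 ± 3.08 (rank 4532). On this scale the indirect pathway peptide was the most abundant of the 4 RNAs by an order of magnitude, and CART the scarcest. The size of this gap depends on the length used, that of all annotated exons joined (1634 bases for Penk, 3399 for Tac1). In reads not divided by length, Penk outnumbered Tac1 5.03-fold in High-Active saline to 6.00-fold in Control amphetamine mice (geometric means). Reads on Penk could be lost or gained at one end of the gene, because 157 of the 1449 bases of its transcript overlap an exon of A830012C17Rik on the opposite strand, and the strand setting of the counting is not given in the sources used here. A830012C17Rik itself had only 5 to 14 reads per mouse.

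No difference in Penk, the enkephalin gene, passed the test. In CPM, the Control saline mice had 1094, 1095, 1115, 1374 and 1493. The Control amphetamine mice had 1177, 1202, 1281, 1344 and 1462. The ranges of these groups overlapped almost throughout. High-Active saline mice had 987, 1099, 1347, 1467 and 1647, the widest range of the 4 groups. High-Active amphetamine mice had 945, 987, 1069.6, 1135 and 1335, so that 4 of these 5 lay below every Control amphetamine mouse. The group means were 1309 ± 268 in High-Active saline, 1293 ± 115 in Control amphetamine, 1234 ± 187 in Control saline and 1094 ± 153 CPM in High-Active amphetamine mice (SD, n = 5), and no neighbours in this order differed by more than their SDs. The log2 fold change was -0.08 for line (High-Active minus Control, standard error 0.09, adjusted p = 0.628) and -0.10 for amphetamine (standard error 0.09, adjusted p = 0.725). The response to amphetamine was 0.07 in Control and -0.26 in High-Active mice (log2 fold change, 95% intervals -0.20 to 0.34 and -0.53 to 0.01). The difference between these responses, -0.33 (standard error 0.18), did not pass the test (unadjusted p = 0.0907, adjusted p = 1).

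Pdyn, the dynorphin gene, was tested with the same result. Control saline mice had 108, 112, 117, 138 and 160.3 CPM. Control amphetamine mice had 107, 109.9, 111, 132 and 153 CPM. The Control groups overlapped over nearly their whole range. High-Active saline mice had 100.3, 114, 134, 147 and 185 CPM, and High-Active amphetamine mice had 85.4, 99.3, 101, 114 and 133 CPM. The lowest 2 values of all 20 mice were in the High-Active amphetamine group and the highest in the High-Active saline group. The means were 136 ± 32.7 in High-Active saline, 127 ± 21.8 in Control saline, 123 ± 19.8 in Control amphetamine and 106 ± 17.9 CPM in High-Active amphetamine mice (SD, n = 5), each step smaller than the SDs beside it. The log2 fold change was -0.05 for line (95% interval -0.28 to 0.18, adjusted p = 0.80) and -0.20 for amphetamine (-0.44 to 0.03, adjusted p = 0.464). In High-Active mice alone the amphetamine difference was -0.36 (standard error 0.16, unadjusted p = 0.0341, adjusted p = 0.533), against -0.05 (standard error 0.16) in Control mice, and the interaction was -0.30 (95% interval -0.77 to 0.16).

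Tac1, the tachykinin gene of the same direct pathway neurons, had its highest group means after saline. Control saline mice had 203, 211, 243, 252 and 271 CPM, and Control amphetamine mice had 198, 206, 212, 216 and 246 CPM. High-Active saline mice had 192, 221, 276, 298 and 315 CPM. High-Active amphetamine mice had 183, 208, 211, 220.4 and 258 CPM. The 2 amphetamine groups shared 1 mean, 216 CPM (± 18.6 in Control and ± 27.2 in High-Active mice, SD, n = 5), below those of Control saline (236 ± 28.5) and High-Active saline mice (260.3 ± 52.2), but all groups overlapped. The amphetamine log2 fold change was -0.20 (standard error 0.09, 95% interval -0.38 to -0.02), with an unadjusted p of 0.0311 that was lost on adjustment (adjusted p = 0.352). In High-Active mice alone the amphetamine difference was -0.27 (95% interval -0.52 to -0.01, adjusted p = 0.55), against -0.13 (-0.38 to 0.12) in Control mice. The line difference was 0.07 (95% interval -0.11 to 0.25, adjusted p = 0.628) and the interaction -0.14 (95% interval -0.49 to 0.22).

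Cartpt, the CART gene, was the member with the largest line and amphetamine differences. Control saline mice had 5.33, 10.8, 13.6, 15.4 and 18.9 CPM. Control amphetamine mice had 6.43, 8.00, 10.04, 10.7 and 13.7 CPM. These 2 groups overlapped and held the 6 lowest values of all mice. High-Active saline mice had 15.7, 16.2, 17.7, 17.7 and 18.8 CPM, and High-Active amphetamine mice had 11.5, 11.8, 12.7, 14.7 and 15.6 CPM. Every High-Active amphetamine mouse was therefore below every High-Active saline mouse, by a margin far smaller than either group's SD, and all 5 High-Active saline mice were above every Control mouse but one, mouse 411. The means were 17.2 ± 1.25 in High-Active saline, 13.3 ± 1.8 in High-Active amphetamine, 12.8 ± 5.11 in Control saline and 9.79 ± 2.78 CPM in Control amphetamine mice (SD, n = 5). Of the neighbours in this order, only the 2 High-Active groups differed by more than both their SDs. The counts behind these values were 202 to 780 reads per mouse.

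The line difference of Cartpt was 0.43 on the log2 scale (standard error 0.17, 95% interval 0.08 to 0.78), about the same after saline (0.43, standard error 0.23) and after amphetamine (0.44, standard error 0.24). Its unadjusted p of 0.0175 gave an adjusted p of 0.109 with edgeR's quasi-likelihood test, just outside the threshold of 0.1. Among 8 alternatives to this fit the adjusted p ran from 0.0258 to 0.316, and it passed the threshold with DESeq2 (0.0671), with the likelihood-ratio test (0.0258) and with limma-voom and family as a random effect (0.0745). It also passed without Control saline mouse 411 (0.52, adjusted p = 0.064) or without Control amphetamine mouse 409 (0.51, adjusted p = 0.0721), each the highest of its group. Control saline mouse 883 had the lowest Cartpt level of all, and without it the difference was 0.33. With scores of the cortex and oligodendrocyte markers as covariates the difference was 0.55 (adjusted p = 0.241), and with the medium spiny neuron marker score 0.34 (adjusted p = 0.316).

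In edgeR's quasi-likelihood test the amphetamine difference of Cartpt was -0.38 (standard error 0.17, unadjusted p = 0.034, adjusted p = 0.358). The interaction was 0.01 (95% interval -0.69 to 0.70). In Control mice the same test gave -0.38 (95% interval -0.88 to 0.11, adjusted p = 0.816). In High-Active mice it gave -0.38 (-0.87 to 0.11, unadjusted p = 0.125, adjusted p = 0.718). The difference over both lines passed the threshold with the likelihood-ratio test alone (-0.42, adjusted p = 0.0773). In all 6 families with mice of both treatments Cartpt was lower in the amphetamine mice than in their saline sibs, by -0.54 ± 0.27 on the log2 CPM scale (SD, n = 6 families). The exact permutation test over signs of these differences gave 0.0313, the smallest p that 6 families allow, and an adjusted p of 0.125 over the 4 members. The other members were lower in 4 (Penk, -0.16 ± 0.43) or 5 (Pdyn, -0.27 ± 0.41, and Tac1, -0.25 ± 0.37) of the 6 families, with exact permutation p of 0.469, 0.188 and 0.188. This comparison was added after the data were seen, on mice that the other tests also used. Most of the 6 families were High-Active, where every amphetamine mouse was below every saline mouse for Cartpt. The signs of Cartpt in those families follow from that separation and add nothing to it. In an exact permutation test on log2 CPM the High-Active groups differed by -0.38, with the smallest p that 5 against 5 mice can give (0.00794, adjusted p = 0.111 over all 28 exact tests of the members). Such a full separation in this direction, 1 of the 4 members, was found in 0.399% of all genes tested. The exact test of the line difference of Cartpt gave 0.51 (p = 0.00532, adjusted p = 0.111), and the other 26 exact tests of the members had adjusted p values of 0.311 or more. High-Active saline mice 499 and 871 share both parents, so the mice are not all independent. With mice of the same parents and treatment averaged, the High-Active groups differed by -0.36 and the lines by 0.50. Both exact tests then had an adjusted p of 0.222. With mice not averaged, both exact tests of Cartpt fell under 0.1 after adjustment without any one of mice 409, 411, 883 and 905 (0.0176 to 0.0914 for line). These were 4 of the 20 fits that left out 1 mouse, and in others the adjusted p rose to 0.303 for either test. Mice 409, 411 and 883 are Control mice and take no part in the High-Active test. Without them only its adjustment changed.

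**Figure D1:**
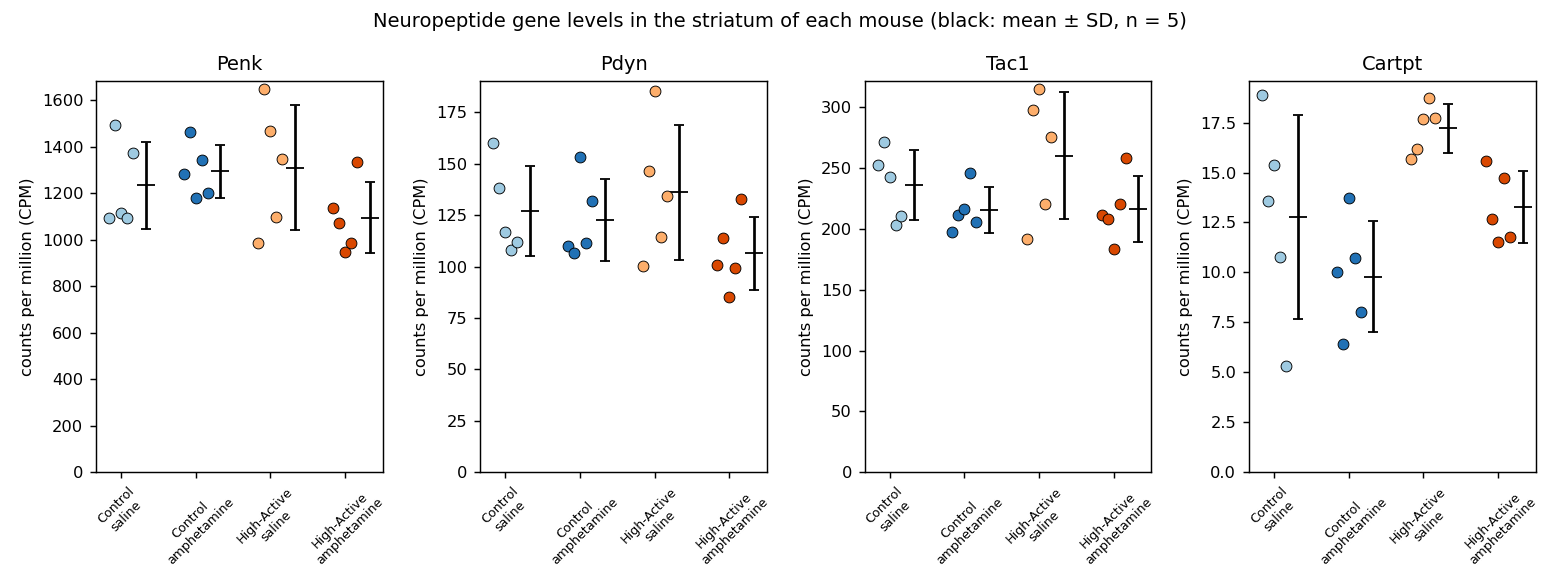
CPM of the 4 neuropeptide genes in each of the 20 mice (points) by group, with the mean and SD of each group in black (n = 5) and axes that start at 0. The High-Active saline mice sit between 15.7 and 18.8 CPM for Cartpt, above all 5 High-Active amphetamine mice, while the groups of the other genes overlap.

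None of the 4 members was called in any of the 7 comparisons at an adjusted p under 0.1, against 14.5% of all genes for line, 3.74% for line in saline mice and 1.3% for line in amphetamine mice. For amphetamine, for its interaction with line, and for amphetamine within Control or High-Active mice, 0% of genes were called by edgeR's quasi-likelihood test. For the amphetamine difference over both lines, 1844 genes had an unadjusted p under 0.05, and DESeq2 called 391. For the interaction, 440 genes had an unadjusted p under 0.05, and the likelihood-ratio test called 6. Within Control and within High-Active mice 940 and 1247 genes had an unadjusted p under 0.05, and DESeq2 called 6 and 131. The amphetamine log2 fold changes of all 4 members were below 0, where 53.0% of all genes were. The median log2 fold change of all genes was -0.00093 for line and -0.0067 for amphetamine. The cortical markers had a median amphetamine difference of 0.95, with none of the 10 past the threshold. With the cortex and oligodendrocyte scores as covariates the amphetamine difference of Cartpt was -0.29 (adjusted p = 0.901).

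**Figure D2:**
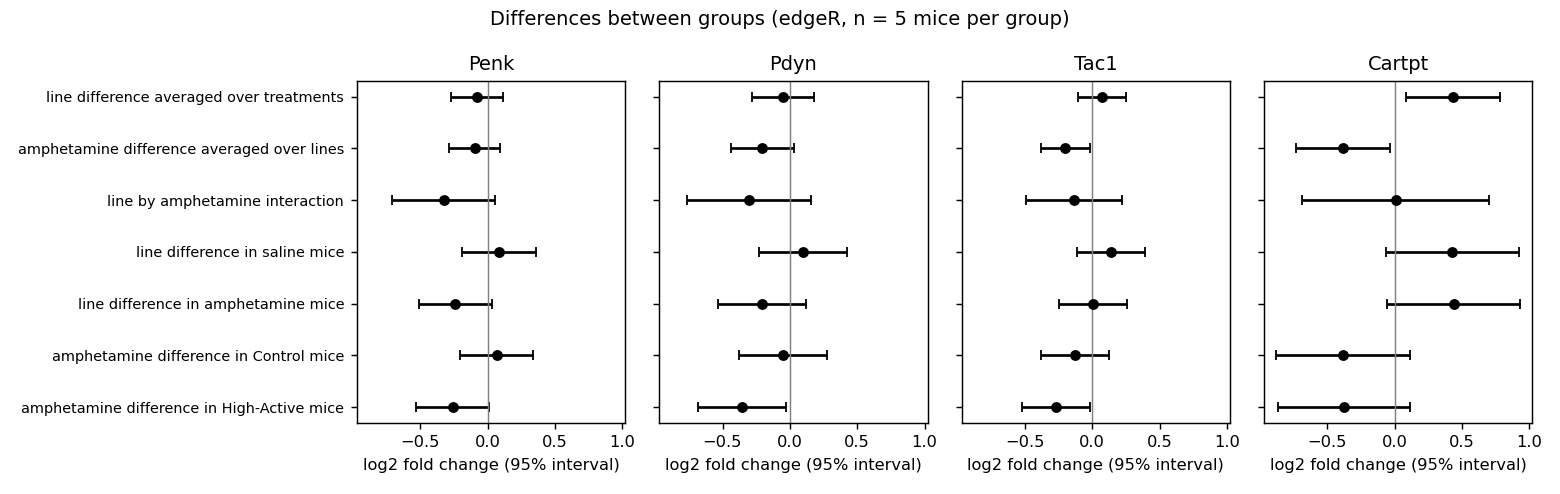
Log2 fold changes of the 4 genes in the 7 comparisons (points) with 95% intervals from edgeR's quasi-likelihood fit of all 20 mice. The intervals of Cartpt for line (0.08 to 0.78) and of Tac1 and Cartpt for amphetamine over both lines leave out 0. Those of Pdyn (-0.68 to -0.03) and Tac1 (-0.52 to -0.01) for amphetamine in High-Active mice do so too. No adjusted p was under 0.1.

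The ratio of 2 members within a mouse depends on neither depth nor scaling. Pdyn reads outnumbered Cartpt reads 10.7-fold in Control saline, 12.8-fold in Control amphetamine, 7.75-fold in High-Active saline and 7.99-fold in High-Active amphetamine mice (geometric means, n = 5). The line difference of this log2 ratio was -0.57 (two-sided exact permutation test that exchanged line labels within treatment, p = 0.004, adjusted p = 0.072), the only one of 18 such differences to pass. The groups still overlapped, at 2.93 to 4.40 in Control saline against 2.61 to 3.39 in High-Active saline mice on the log2 scale. It lost its call without any one of 12 mice (192, 197, 407, 415, 448, 457, 477, 487, 871, 872, 883 and 886), with -0.45 without mouse 883 and an adjusted p of up to 0.18 without mouse 871. The ratios of Penk and of Tac1 to Cartpt were lower in High-Active mice by similar amounts, -0.60 and -0.45 (p = 0.015 and 0.0177 in the exact permutation test, both adjusted p = 0.106), and each passed without any one of 5 mice (409, 411, 469, 483 and 905). All 3 share the Cartpt counts and so are not independent. The ratios among Penk, Pdyn and Tac1 differed by at most 0.15 between the lines (smallest exact p = 0.0527, Penk to Tac1), and no ratio passed for amphetamine or the interaction.

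**Figure D3:**
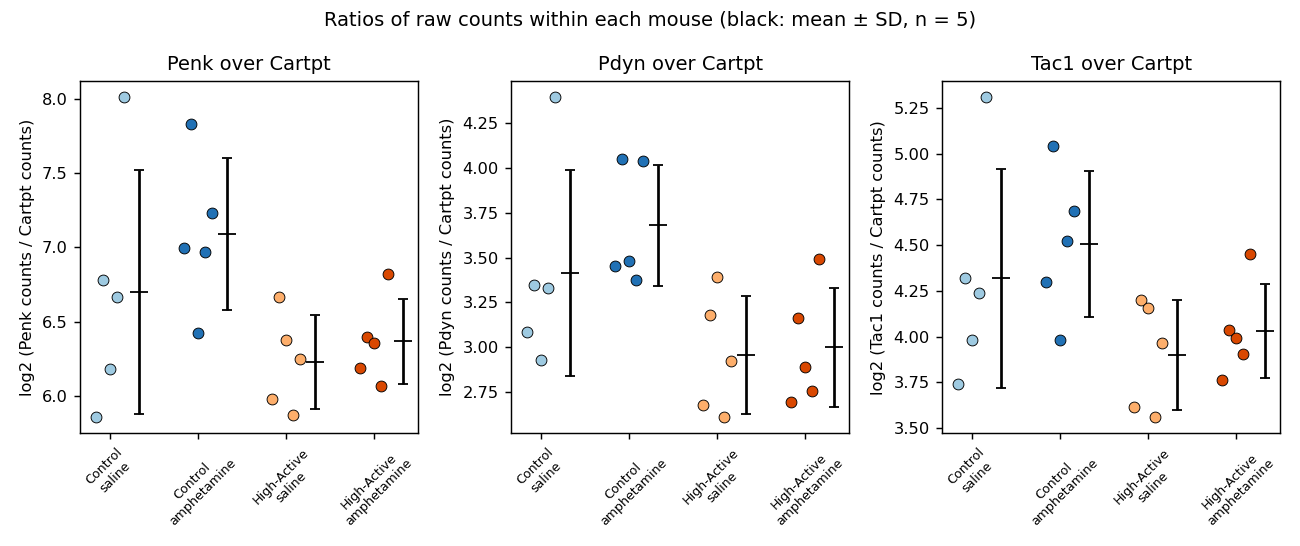
Log2 ratios of the raw counts of Penk, Pdyn and Tac1 to those of Cartpt in each mouse (points) by group, with mean and SD in black (n = 5) and axes that do not start at 0. Pdyn over Cartpt is lower in both High-Active groups, whose means are 2.95 and 3.00, than in both Control groups, whose means are 3.42 and 3.68.

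Within groups, Tac1 varied together with Pdyn and with Penk from mouse to mouse. After each value was set against its group mean, Pdyn and Tac1, which share the direct pathway neurons, were correlated over the 20 mice (r = 0.77, permutation p = 0.00072, adjusted over 6 pairs 0.00432, rho = 0.79, permutation p = 0.00088). Penk and Tac1, of different pathways, were correlated too (r = 0.73, permutation p = 0.00448, adjusted 0.0134, rho = 0.71, permutation p = 0.00698). For each pair, the 2 most extreme mice were those farthest from the median log2 CPM of 1 member, before group means were removed. That member was the first named, or in pairs with Cartpt the other gene. With these mice left out r was 0.72 (without 499 and 411) and 0.67 (without 483 and 487). Both correlations held without any single mouse. Penk and Pdyn reached 0.46 (permutation p = 0.097, adjusted 0.146, rho = 0.52, permutation p = 0.0527), or 0.38 with the 2 most extreme mice left out. It passed after adjustment without mouse 409 (0.56) or 411 (0.59). The pairs with Cartpt had r of -0.29 with Penk, 0.37 with Pdyn and 0.30 with Tac1 (rho of -0.16, 0.38 and 0.34), with permutation p of 0.226, 0.0922 and 0.134 for r and 0.462, 0.097 and 0.105 for rho, or r of -0.35, 0.27 and 0.39 with the 2 most extreme mice left out. None of the pairs with Cartpt passed after adjustment.

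These relations had higher values in one line. Within the High-Active mice r was 0.93 for Pdyn and Tac1, 0.93 for Penk and Tac1 and 0.86 for Penk and Pdyn (n = 10), and within Control mice 0.44, 0.28 and -0.29. The difference between the lines was not tested. High-Active saline mouse 197 was lowest of its group in all 3 genes and High-Active amphetamine mouse 487 lowest of its own, while mouse 905 was highest of the High-Active amphetamine group in all 3. Of all 14791 other genes, Tac1 ranked 7 by its correlation with Pdyn and 218 by that with Penk.

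**Figure D4:**
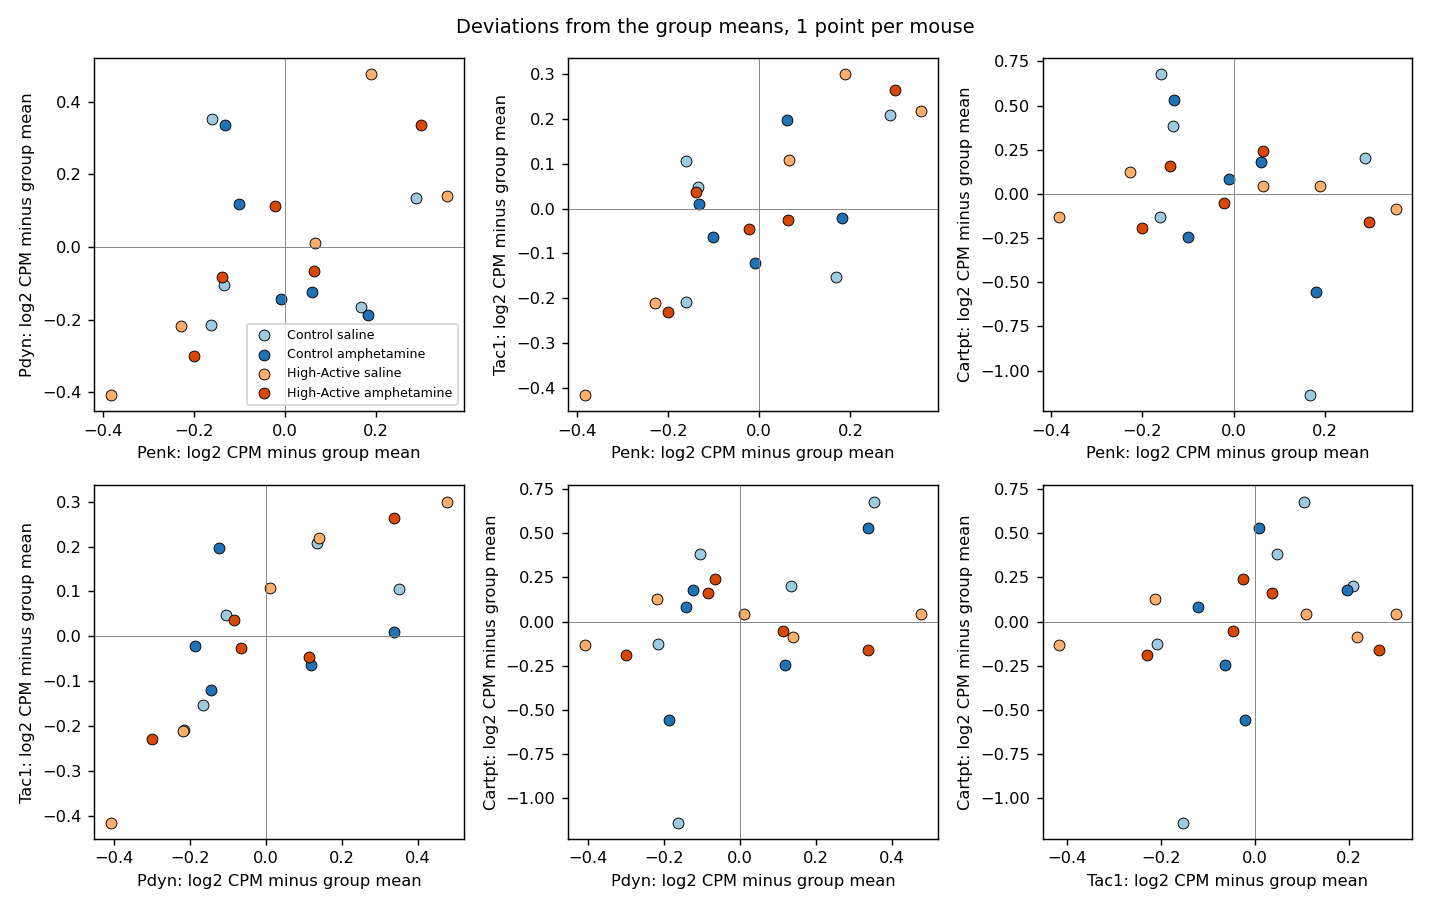
Deviations of log2 CPM from the group mean for each pair of genes, 1 point per mouse and 1 colour per group. Tac1 lies along a diagonal with Pdyn (r = 0.77) and with Penk (r = 0.73), with the High-Active mice in orange and the Control mice in blue, while Cartpt and Penk show none (r = -0.29).

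The genes whose pattern was most like each member's are given as a description. For Penk they were Pde7b, Mctp1, Kcnj2, Clvs1 and Pde10a, with r from 0.92 down to 0.89 over the 20 mice after centring on group means. Pde10a, a striatal phosphodiesterase, is also one of the medium spiny neuron markers. For Pdyn they were Ccnl2, Gria1, Gm13889, Grm4 and 1700102P08Rik (0.89 to 0.80), where Gria1 encodes an AMPA receptor subunit and Grm4 a metabotropic glutamate receptor. For Tac1 they were Gripap1, Kdm5c, Jak2, Mbnl1 and Ccng2 (0.88 to 0.83). For Cartpt they were Dcun1d4, Ntn1, Prok2, Gfra1 and Eya2 (0.83 to 0.78). No gene was among the 5 of more than 1 member. Each point is a library, whose depth and tissue sample all genes share.

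Penk followed the medium spiny neuron score, the mean of 12 marker genes (r = 0.82, permutation p = 0.00097, adjusted 0.0116 over 12 relations, rho = 0.84, permutation p = 0.00085). With High-Active mice 197 and 415, those most distant from the median score, left out, r was 0.79, and it was 0.59 within Control and 0.91 within High-Active mice. The correlation of this score with Tac1 was 0.65 (permutation p = 0.0296, rho = 0.55, permutation p = 0.0537), with Pdyn 0.49 (permutation p = 0.0902, rho = 0.44, permutation p = 0.113) and with Cartpt -0.28 (permutation p = 0.0742, rho = -0.29, permutation p = 0.158), none of which passed after adjustment. These relations were added after the data were seen. The oligodendrocyte score had an r of -0.48 with Pdyn (permutation p = 0.044, rho = -0.50, permutation p = 0.043, r of -0.44 with mice 411 and 415 left out) and of -0.48 with Tac1 (permutation p = 0.04, rho = -0.54, permutation p = 0.022, r of -0.48 with them left out), each with an adjusted p of 0.132. It was -0.23 with Penk and -0.28 with Cartpt, and the cortical score had r between -0.16 and -0.02 with the 4 members, none of which passed. With the medium spiny neuron score as a covariate the line difference of Penk turned from -0.08 to 0.08 and that of Pdyn from -0.05 to 0.06, neither past the threshold.

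No relation of a member with the activity or weight of a mouse passed the test. Within each line, with values set against treatment means, the 16 correlations with the distance of re-phenotyping and with body mass lay between -0.57 and 0.38 (n = 10 per line). The smallest unadjusted p was 0.167 for r (Cartpt and body mass in Control mice, exact permutation test within treatment), and no adjusted p was under 0.805. The relation of Pdyn with body mass in Control mice was -0.42 (exact permutation p = 0.277, rho = -0.60) and -0.82 with mice 469 and 448 left out. That of Penk with body mass in Control mice went from 0.23 to 0.65 without them. In High-Active mice the correlations with distance changed sign without mice 905 and 483. They went from 0.32 to -0.08 for Penk, 0.38 to -0.04 for Pdyn, 0.30 to -0.10 for Tac1 and -0.16 to 0.65 for Cartpt.

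The receptors of these peptides were compared as well. Oprm1, the mu opioid receptor at which enkephalins act, was higher in High-Active mice, with 6.09 and 5.99 CPM after saline and amphetamine against 4.07 and 4.79 in Control mice (log2 fold change 0.45, standard error 0.14, adjusted p = 0.0532). It stayed past the threshold without any single mouse but not with the cortex and oligodendrocyte scores as covariates (0.33, adjusted p = 0.424). The delta receptor Oprd1 (-0.05, standard error 0.12), the kappa receptor Oprk1 (-0.15, standard error 0.10), the nociceptin receptor Oprl1 (0.14, standard error 0.10) and the substance P receptor Tacr1 (-0.06, standard error 0.08) did not pass for line. Tacr3, the receptor preferred by neurokinin B, was at 0.40 (standard error 0.17, adjusted p = 0.134), and passed with DESeq2 (adjusted p = 0.0938) and with the likelihood-ratio test (0.0353), and without Control saline mouse 477 or High-Active saline mouse 886 (adjusted p = 0.0751 and 0.0373). Tacr2 was at most 0.0786 CPM in the mean of any group and was not tested. Of the 6 tested receptors 1 was thus called for line, where 14.5% of all genes were, with a median of 0.05 against -0.00093 for all genes, and no receptor passed for amphetamine or the interaction.

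Of 9 genes that process prohormones, 1 was higher in High-Active mice and none lower, a share near the 14.5% of all genes called for line. This was Scg5 (7B2, the chaperone of the convertase PC2), at 429 and 443 CPM in High-Active against 243 and 267 in Control mice after saline and amphetamine (log2 fold change 0.77, standard error 0.14, adjusted p = 0.00344). The convertases themselves, Pcsk1 (0.08) and Pcsk2 (-0.14), the carboxypeptidase Cpe (0.03) and the amidating enzyme Pam (-0.0039) had adjusted p values of 0.172 or more. Of 7 secretory granule genes, Chga (0.27, adjusted p = 0.0336) and Scg2 (0.33, adjusted p = 0.0474) were higher in High-Active mice and none was lower. Of 10 peptidases, Ace, which cleaves enkephalins among other peptides, was lower (-0.51, adjusted p = 0.0307), at 32.0 and 31.8 CPM in High-Active against 43.3 and 47.4 in Control mice, and none was higher. The medians of the 3 lists for line were 0.06, 0.04 and 0.02, and with 1 of 9, 2 of 7 and 1 of 10 genes called, the counts are too small to set any list apart from all genes. Scg5 was called without any single mouse and under each of the other alternatives run. With cortex and oligodendrocyte scores as covariates Chga, Scg2 and Ace had adjusted p of 0.253, 0.264 and 0.107, and with the medium spiny neuron score Chga and Scg2 had 0.164 and 0.153.

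Other neuropeptide genes gave 4 of 15 tested higher in High-Active mice and none lower, with a median line difference of 0.24. Of all 14792 genes tested, 14.5% were called for line, 1129 of them higher and 1020 lower. The 4 were Trh (1.33, standard error 0.41, adjusted p = 0.0528), Nts (neurotensin, 0.59, standard error 0.20, adjusted p = 0.0765), Gal (galanin, 1.25, standard error 0.45, adjusted p = 0.0887) and Pnoc (prepronociceptin, 0.49, standard error 0.18, adjusted p = 0.0933). Trh was at 14.7 and 10.1 CPM in High-Active and 7.16 and 3.23 in Control mice after saline and amphetamine. Nts was at 32.2 and 20.1 CPM against 19.3 and 14.9. Trh and Gal are peptides of the hypothalamus among other regions, and whether tissue of such regions bore on their levels was not tested. Of the 8 tested thalamic and hypothalamic markers (median line difference 1.16), Tcf7l2 (1.01, adjusted p = 0.0604) was higher in High-Active mice. Lhx2 and Pomc of this list were at -0.11 and -0.23. The summed level of the list was 44.5 to 140 CPM in Control and 49.4 to 267 in High-Active mice. Pmch of the same list passed too (2.26, adjusted p = 0.0821), but its level ran from 0.318 to 5.50 CPM in High-Active saline and 0.182 to 15.1 CPM in High-Active amphetamine mice, against at most 1.00 in Control mice. Its difference was 0.13 with the likelihood-ratio test and 0.53 with limma-voom and family as a random effect, neither past the threshold. Trh, Nts, Gal and Pnoc did not pass with the cortex and oligodendrocyte scores as covariates (adjusted p = 0.558, 0.559, 0.597 and 0.706) or with the medium spiny neuron score (0.455, 0.246, 0.482 and 0.646). With limma-voom and family as a random effect Trh, Gal and Pnoc did not pass either (0.159, 0.125 and 0.174), nor did Gal and Pnoc with no filter on low counts (0.108 and 0.118). The calls also held in only 14 (Nts), 7 (Gal) and 6 (Pnoc) of the 20 fits that left out 1 mouse, while that of Trh was lost without High-Active amphetamine mouse 415 (1.10, adjusted p = 0.113).

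The neurons that make the peptides were read through their markers. Of the 7 direct pathway markers (median line difference -0.04) and the 6 tested indirect pathway markers (-0.07) none passed for line, amphetamine or the interaction. Drd1 was at -0.17 (standard error 0.10, adjusted p = 0.27) and Drd2 at -0.13 (standard error 0.09, adjusted p = 0.356) for line. Of the 12 general markers (median -0.16) 2 were called for line, where 14.5% of all genes were. These were Meis2 (-0.26, adjusted p = 0.0381) and Rasd2 (-0.29, adjusted p = 0.0594), both lower in High-Active mice. All 12 line differences were below 0, from -0.29 (Rasd2) to -0.02 (Ptpn5), where 50.3% of all genes were. Of the 8 tested interneuron markers (median 0.07) 1 was called, Calb2 (1.10, adjusted p = 0.0789), which was higher. Sst, Npy and Th of that list were at -0.15, -0.29 and -0.30. Of other cells, the oligodendrocyte genes Mobp (0.33, adjusted p = 0.0206) and Mbp (0.26, adjusted p = 0.0887) were higher. So were the astrocyte genes Aldh1l1 (0.32, adjusted p = 0.012) and Gja1 (0.19, adjusted p = 0.0352) and the microglial gene Itgam (0.41, adjusted p = 0.00988). The cortical genes Slc30a3 (-1.01, adjusted p = 0.037), Neurod2 (-0.91, adjusted p = 0.057) and Slc17a7 (-0.85, adjusted p = 0.0731) and Tbr1 (-0.69, adjusted p = 0.0949), the astrocyte gene Slc1a2 (-0.12, adjusted p = 0.0988) and the microglial gene Csf1r (-0.14, adjusted p = 0.0993) were lower. The calls were 2 of 8 oligodendrocyte markers, both higher, and 4 of 10 cortical markers, all lower. Of 6 astrocyte markers 2 were called higher and 1 lower, and of 7 microglial markers 1 higher and 1 lower. Drd3, the receptor of the ventral striatum and olfactory tubercle islands, was at 0.17 (standard error 0.22, adjusted p = 0.652), and no endothelial or choroid plexus marker passed. When each mouse was left out in turn, Neurod2 and Rasd2 were called in 17 of 20 fits, Tcf7l2 in 14, Slc17a7 in 12, Calb2 in 10, Mbp and Slc1a2 in 7, Tbr1 in 6 and Csf1r in 5. With limma-voom and family as a random effect Calb2 (1.00, adjusted p = 0.152), Tcf7l2 (0.79, adjusted p = 0.192), Tbr1 (-0.74, adjusted p = 0.101), Slc1a2 (-0.12, adjusted p = 0.105) and Csf1r (-0.14, adjusted p = 0.102) did not pass. Calb2 was at 0.39 with the cortex and oligodendrocyte scores as covariates and at 0.38 with the medium spiny neuron score (adjusted p = 0.736 and 0.552), and Meis2, Rasd2, Mbp, Gja1, Neurod2, Slc17a7, Tbr1, Tcf7l2, Slc1a2 and Csf1r passed in neither of these fits. Whether these marker differences had a part in the level of Cartpt was not tested beyond the covariate fits above.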

How the data were processed

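Striatal RNA of 20 mice was sequenced by the authors as 100-base pairs from stranded TruSeq libraries over 5 lanes. Per the labels and the submitters' processing notes, reads were handled with CASAVA 1.8.2, TopHat2 2.0.10, Bowtie2 2.1.0 and SAMtools 0.1.19 and counted with HTSeq 0.6.1 on GRCm38. The deposited values are raw counts per Ensembl gene, not normalized by the authors. Of the rows, 5 counters of unassigned reads were left out (unassigned to a gene 8.17% to 9.55%, ambiguous 1.39% to 1.66% of reads). Counts were fitted with edgeR 4.0.16 (R 4.3.3) after TMM normalization and a filter of over 1 CPM in 3 or more mice, in a model with 1 coefficient per group and tested by quasi-likelihood. Its p-values were adjusted by Benjamini and Hochberg's method over all 14792 genes of a comparison, with a threshold of 0.1. DESeq2 1.42.0 and limma 3.58.1 served as alternatives. Log2 CPM used a prior count of 2. Exact permutation tests enumerated all 63504 exchanges within treatment or line, or 252 for 5 against 5 mice, two-sided, and relations used 100000 permutations within groups or all 14400 within a line. For the interaction, treatment labels were exchanged within each line. The null of that exact test is no amphetamine effect in either line, and not equal effects in both. The members and gene lists were chosen with earlier results of these data known. Named genes were the members, from each list up to 3 genes past the threshold by smallest p, all 7 receptors and the 5 genes most correlated with each member. Pnoc, Tbr1, Pcsk1, Pcsk2, Cpe, Pam, Drd1 and Drd2 were named after their values were seen. The mice were separate animals, and each member had 202 or more reads in every mouse. No replicate number pairs the mice. Of the 12 coding stretches found, 5 are printed, and the others are not reported here.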

Additional observations from a re-analysis of the deposited data

Results flagged for a closer look

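The 4 members and their 6 ratios gave 40 sets of 5 mice, in which a value was marked when its gap to the nearest other mouse exceeded 0.71 of the range of its group. By chance about 1 in 20 sets would be marked, and 2 of 40 were. High-Active amphetamine mouse 872 had the lowest log2 Penk/Tac1 ratio of its group, 2.16. Control saline mouse 883 had the highest log2 Pdyn/Cartpt ratio of its group, 4.40, and it also had the lowest Cartpt level of all mice. Without mouse 883 the line difference of log2 Pdyn/Cartpt was -0.45 (adjusted p = 0.156).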

How the results depend on the processing

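No member was called for any comparison by the main quasi-likelihood test, and RLE normalization and both other filters on low counts left this as it was. Cartpt passed for line with DESeq2 (0.43), with the likelihood-ratio test with robust dispersions (0.42) and with limma-voom and family as a random effect (0.52), and for amphetamine with the likelihood-ratio test (-0.42). The cause was not tested. Differences near 0 changed sign. With the medium spiny neuron score as a covariate, Penk went to 0.084 for line, 0.0015 for line in amphetamine mice and -0.0013 for amphetamine in Control mice, Pdyn to 0.057 for line and Cartpt to -0.10 for the interaction. Pdyn went to 0.069 for amphetamine in Control mice with the cortex and oligodendrocyte scores, Tac1 to -0.011 for line in amphetamine mice with the likelihood-ratio test, and Cartpt to -0.09 for the interaction with limma-voom. Comparing amphetamine with saline mice within families changed no call of a member. The amphetamine difference of log2 Pdyn/Tac1 went to 0.0046 when mice of the same parents and treatment were averaged. For line, Oprd1 went to 0.038 with the cortex and oligodendrocyte scores and 0.14 with the medium spiny neuron score, with which Oprl1 went to -0.053, Tacr1 to 0.038, Drd1 to 0.013, Drd2 to 0.051, Pcsk1 to -0.036 and Pmch to -0.044. With the cortex and oligodendrocyte scores Tbr1 went to 0.016 and Pcsk2 to 0.0046. Of the values of named genes that are not members under all alternatives, 796 kept their direction and side of the threshold, 185 lost the call, 4 gained one and 18 changed sign.

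The number of genes called depended more on the method. For line it was 332 with the cortex and oligodendrocyte scores and 965 with the medium spiny neuron score, against 2149. In saline mice it was 47 with the cortex and oligodendrocyte scores, 1111 with DESeq2 and 1091 with the likelihood-ratio test, against 553. In amphetamine mice it was 71, 462 and 506 with these, 63 with the medium spiny neuron score and 119 from only the 10 mice compared, against 193. For amphetamine DESeq2 called 391 and the likelihood-ratio test 458, in Control mice 6 and 45, and in High-Active mice 131 and 280, against 0. For the interaction the likelihood-ratio test called 6, against 0.

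When mice were left out singly, the genes called ranged from 1381 (without High-Active amphetamine mouse 415) to 2535 for line, 0 to 339 (without mouse 415) for amphetamine, 0 to 1 for the interaction, 187 (without Control saline mouse 883) to 691 for line in saline mice, 79 (without mouse 415) to 200 for line in amphetamine mice, 0 to 3 for amphetamine in Control mice and 0 to 68 (without mouse 415) in High-Active mice. In edgeR's fit, line in saline mice ranged from -0.011 to 0.17 for Penk and -0.039 to 0.20 for Pdyn, amphetamine in Control mice from -0.14 to 0.050 for Pdyn, and line in amphetamine mice from -0.067 to 0.058 for Tac1. Cartpt ranged from 0.33 to 0.52 for line and -0.18 to 0.21 for the interaction, and Oprd1 from -0.11 to 0.019 and Pam from -0.024 to 0.0078 for line. In the exact tests, line in saline mice ranged from -0.016 to 0.17 for Penk and -0.036 to 0.18 for Pdyn, line in amphetamine mice from -0.32 (past the threshold without mouse 905) to -0.20 for Penk and -0.066 to 0.057 for Tac1, and amphetamine in Control mice from -0.13 to 0.038 for Pdyn. For Cartpt they ranged from 0.36 to 0.59 for line, -0.49 (past the threshold without mouse 883) to -0.26 for amphetamine, -0.24 to 0.22 for the interaction, 0.26 to 0.71 (past without mouse 411) for line in saline mice, 0.33 to 0.61 (past without mouse 409) for line in amphetamine mice, and -0.44 to -0.33 for amphetamine in High-Active mice. Line differences of log2 ratios ranged from -0.089 to 0.021 for Penk/Pdyn, -0.18 (past without mouse 411) to -0.11 for Penk/Tac1, -0.70 to -0.43 for Penk/Cartpt, -0.63 to -0.45 for Pdyn/Cartpt and -0.52 to -0.32 for Tac1/Cartpt. The interaction ranged from -0.15 to 0.097 for Penk/Pdyn and -0.30 to 0.089 for Tac1/Cartpt, the amphetamine difference from -0.047 to 0.034 for Pdyn/Tac1, and the correlation of Penk and Pdyn from 0.31 to 0.59.

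With 5 mice a group, the 95% intervals of the line difference ran from -0.11 to 0.25 for Tac1, the narrowest of the 4 members, and from 0.08 to 0.78 for Cartpt, the widest. The size of each difference was thus known no more closely than its interval. Cartpt, with 202 reads in the lowest mouse, was the least deeply counted.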
